A study of Homo sapiens with 6 samples.

Results

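Integrins and the proteins of the focal adhesion are described here in M14, an established human melanoma cell line, grown as floating spheres. The genes were taken as a list of symbols: 20 integrin subunits (ITGA6 and ITGB4, the subunits of the hemidesmosome integrin, are not among them) and 18 proteins that sit on the cytoplasmic side of integrins. Each of the 38 symbols matched exactly 1 of the 58395 genes of the deposited table. The table holds 6 transcriptome libraries, 3 of cells sorted as CD20-positive and 3 of cells sorted as CD20-negative with an antibody and flow cytometry after the spheres were taken apart mechanically, numbered as replicates 1 to 3 in each fraction. Both fractions came from this 1 line in non-adherent culture, attached cells were not analysed here, and the labels do not say that the replicates were separate cultures. The p-values therefore measure the spread between these libraries, which may be technical. In bulk RNA, fewer cells with a transcript and less of it per cell cannot be told apart.

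An integrin is a dimer of an alpha and a beta chain that spans the plasma membrane, with the alpha chain largely setting which matrix protein is bound. Talins and kindlins bind the short tail of the beta chain and switch the dimer to its active form. Vinculin, alpha-actinin, tensins and the complex of integrin-linked kinase (ILK) with PINCH and parvin then couple it to actin, while the focal adhesion kinase (PTK2), SRC and the adaptors paxillin and p130Cas (BCAR1) carry signals from the site. Melanoma cells commonly use integrins of the beta1 and alphaV families, and cells in suspension lack the large adhesions that form on a rigid surface.

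Levels are given as FPKM, fragments per kilobase of exon scaled by 1 size per library, and they can be compared between genes. The implied sizes were 17830468 to 19782432 in CD20-negative and 15107847 to 16032265 in CD20-positive libraries. They are not the fragment totals given below. Of the 38 genes 27 averaged 1 FPKM or more across the libraries and were tested, and 11 averaged 10 FPKM or more. Changes are differences of log2(FPKM + 1), CD20-positive minus CD20-negative, from limma across 13155 genes, and they understate the change of low genes. A gene is called where its Benjamini-Hochberg adjusted p over all tested genes is under 0.05. The fit without a replicate block called 1 of the 13155 genes (0.0076%) and 0 of the 27 tested here. Of these 27, 5 (18.5%) had an unadjusted p under 0.05 in this limma fit, beside 9.2% of all tested genes. A second fit blocked on replicate number and is termed the paired fit below. The labels do not state such pairs, and the fit leaves 2 residual degrees of freedom per gene. The paired fit called 767 genes, or 5.83%, with 3.19% higher and 2.64% lower. It called 5 of the 27 adhesion genes (18.5%), each higher in CD20-positive cells, and all 5 are integrin subunits. These are ITGA3, ITGA5, ITGA7, ITGA10 and ITGB2. None of the 16 tested focal adhesion proteins passed in either fit, and whether integrins and adhesion proteins differ in their change was not tested.

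Among the facts that touch every value, the libraries corresponded to between 15651914 and 17917090 fragments each. Mitochondrial genes took 4.25 to 5.73% of them in CD20-negative and 11.9 to 20.6% in CD20-positive libraries, with the highest share in CD20-positive replicate 1, and the part of this shift in the values below was not tested. Without that library the fit without a block called 322 genes, ITGA5 and ITGB2 among them, with 0.935% of all tested genes called higher. MS4A1, the gene of the sorted CD20 protein, averaged 0.297 ± 0.0940 FPKM in the negative and 1.16 ± 0.170 FPKM in the positive fraction (SD, n = 3). The fractions did not overlap (p = 0.1 by a two-sided exact permutation test, and no smaller p is possible with these group sizes). Of 12 melanocytic markers 5 averaged 1 FPKM or more, MITF among them at 2.12 FPKM, and 1, PMEL, was called higher in the paired fit. Their summed level was 26.2 to 29.1 FPKM in CD20-negative and 35.9 to 43.3 FPKM in CD20-positive libraries, with no overlap. Only 1 of the markers averaged 10 FPKM or more. Of the 5 tested, 2 had a positive change, and their median change was -0.06, so the sum does not describe most of them. The highest library had 0.0717 FPKM of SOX10, 0.262 of MLANA and 0.0207 of TYR, so these 3 defining markers were near 0. Of 10 epithelial markers 6 averaged 1 FPKM or more, with sums of 441 to 584 FPKM in CD20-negative and 541 to 680 FPKM in CD20-positive libraries. Of these 6, 1, KRT17, was called higher in the paired fit. CDH1 (E-cadherin), also on the epithelial list, was near 0, with at most 0.121 FPKM in any library. The leukocyte gene PTPRC (CD45) reached at most 0.0116 FPKM.

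The promoters of 3 subunits are shown. ITGA5 was called in the paired fit and had the highest level of any alpha chain, and ITGA10 was called at a lower level. ITGB1, the beta chain that pairs with both, was not called. No promoter sequence was available for the other called subunits, ITGA3, ITGA7 and ITGB2. Each window runs from 250 bases before to 50 after the RefSeq start (GRCh38.p14), 5′ to 3′ on the strand of the gene, and lies on the minus strand in the 3 cases: chr12:54419217-54419516 for ITGA5, chr1:145910001-145910300 for ITGA10 and chr10:32958181-32958480 for ITGB1. Capitals mark matches on either strand to the GC box (GGGCGG), the AP-1 site (TGANTCA), the TEAD site (GGAATG) and the ETS site (CCGGAAG), and no match of one motif overlapped another.
ITGA5: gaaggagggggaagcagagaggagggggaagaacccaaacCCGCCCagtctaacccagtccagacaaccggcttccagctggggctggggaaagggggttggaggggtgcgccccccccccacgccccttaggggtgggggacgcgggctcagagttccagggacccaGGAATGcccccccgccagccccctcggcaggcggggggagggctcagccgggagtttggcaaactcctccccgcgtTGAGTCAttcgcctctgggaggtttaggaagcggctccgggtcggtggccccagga
ITGA10: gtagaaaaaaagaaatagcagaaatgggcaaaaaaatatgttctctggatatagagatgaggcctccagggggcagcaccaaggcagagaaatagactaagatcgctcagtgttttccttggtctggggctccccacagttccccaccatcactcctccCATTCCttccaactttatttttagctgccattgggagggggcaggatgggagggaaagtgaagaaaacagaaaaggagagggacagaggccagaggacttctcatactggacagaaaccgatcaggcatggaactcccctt
ITGB1: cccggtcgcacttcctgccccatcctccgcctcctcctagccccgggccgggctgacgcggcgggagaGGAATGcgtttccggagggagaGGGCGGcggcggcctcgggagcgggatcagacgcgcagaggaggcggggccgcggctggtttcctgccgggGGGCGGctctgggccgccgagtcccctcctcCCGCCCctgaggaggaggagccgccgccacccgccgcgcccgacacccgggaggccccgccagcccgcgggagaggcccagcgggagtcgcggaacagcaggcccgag
The ITGA5 window held 1 GC box, 1 AP-1 and 1 TEAD match, the ITGA10 window 1 TEAD match, and the ITGB1 window 3 GC boxes and 1 TEAD match. In all 35116 windows of this length, 45.0% held a GC box, 7.71% the AP-1 letters, 14.03% the TEAD letters and 10.3% the ETS letters. Among the 28 adhesion genes with a window the numbers were 17 with a GC box, 3 with AP-1, 4 with TEAD and 1 with ETS letters. A match describes the letters only and is not a measured site.

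**Figure D1:**
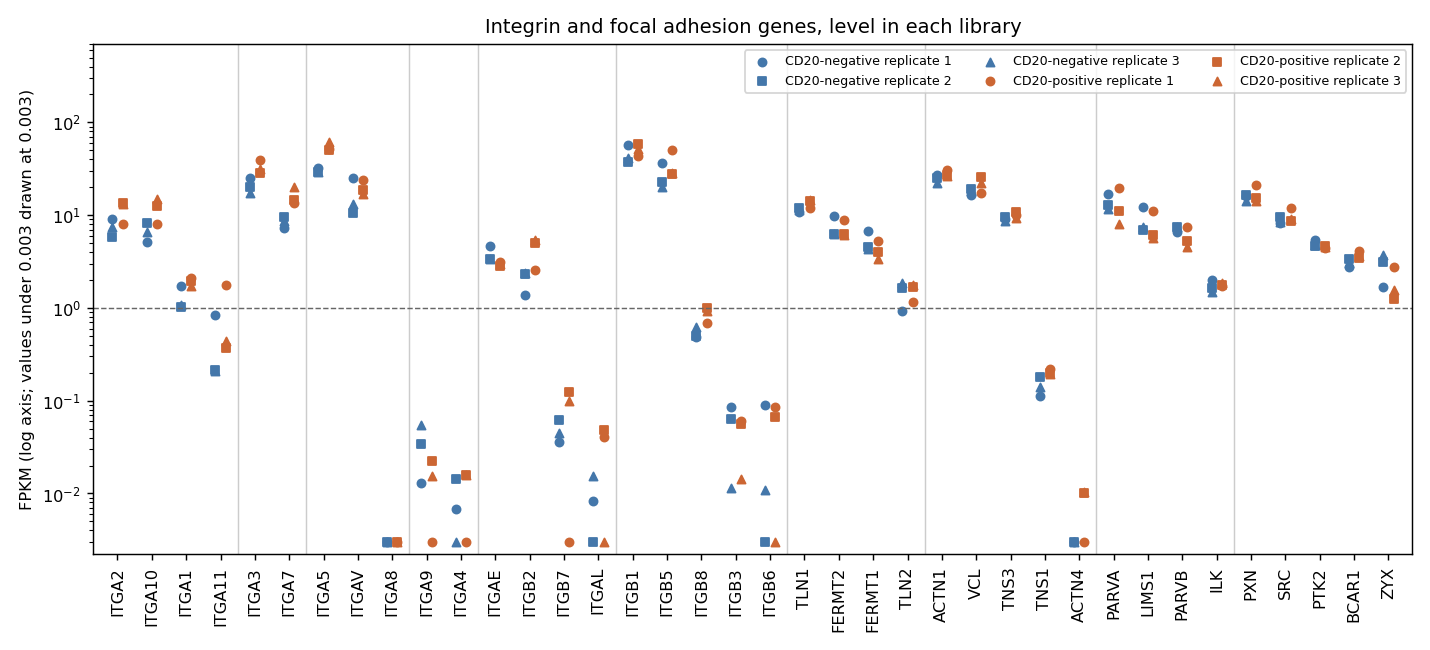
Level of each of the 38 genes in each library in FPKM (log axis), grouped by role, from alpha chains on the left through beta chains to adhesion proteins on the right; blue is CD20-negative, orange CD20-positive, the marker shape is the replicate number and the dashed line is 1 FPKM; values below the axis are drawn at its foot. ITGB1 and ITGA5 are the highest of the genes, with means of 48.1 and 42.1 FPKM, and 11 genes have a mean under the line.

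The receptors of fibronectin and vitronectin, which recognise the RGD sequence, were led by ITGA5 (ENSG00000161638, GRCh38 chromosome 12, 54395261 to 54419460). ITGA5, the alpha chain of the fibronectin receptor, measured 31.9, 29.3 and 28.9 FPKM in CD20-negative replicates 1, 2 and 3 and 51.1, 49.8 and 61.6 FPKM in the CD20-positive ones. The fractions did not overlap, and the CD20-negative libraries lay close together. Its mean went from 30.0 ± 1.62 to 54.2 ± 6.45 FPKM (SD, n = 3), a ratio of 1.80. The log2 change was 0.83 ± 0.15 (SE; limma, adjusted p = 0.229, and 0.0112 in the paired fit). ITGAV, the alpha chain shared by the vitronectin receptors, measured 24.8, 10.7 and 13.2 FPKM in CD20-negative and 24.1, 18.7 and 17.0 FPKM in CD20-positive libraries. It was high in replicate 1 of both fractions, which overlapped, and its change of 0.35 ± 0.30 was not called (limma, adjusted p = 0.754, and 0.237 in the paired fit). ITGA8, a nephronectin receptor chain, had 0 fragments in all 6 libraries, which allows up to 3 fragments per library or 0.0201 to 0.0264 FPKM.

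The laminin receptors ITGA3 and ITGA7 were both called in the paired fit. ITGA7 (chromosome 12, 55684568 to 55716043), best known from muscle, measured 7.25, 9.64 and 8.70 FPKM in CD20-negative and 13.6, 14.7 and 20.3 FPKM in CD20-positive libraries. Each CD20-positive library lay above each CD20-negative one, and the ratio of the means was 1.90. Its log2 change was 0.84 ± 0.19 (SE; limma, adjusted p = 0.277, and 0.00963 in the paired fit). ITGA3 (chromosome 17, 50055968 to 50090481), the alpha chain of the main epithelial laminin receptor, measured 25.2, 20.01 and 17.3 FPKM in CD20-negative and 39.5, 28.6 and 31.5 FPKM in CD20-positive libraries. The fractions did not overlap, and CD20-negative replicate 1 came closest to the CD20-positive range. Its log2 change was 0.65 ± 0.19 (limma, adjusted p = 0.378, and 0.0239 in the paired fit).

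Among the collagen receptors, ITGA10 rose in the paired fit and the other members were not called. ITGA10 (chromosome 1, 145891208 to 145910189), a chain of cartilage, measured 5.16, 8.27 and 6.66 FPKM in CD20-negative and 7.94, 12.5 and 14.8 FPKM in CD20-positive libraries. The fractions overlapped because CD20-positive replicate 1 lay below CD20-negative replicate 2, while each pair rose, by 0.54, 0.54 and 1.04 on the log2 scale (adjusted p = 0.486 without the block and 0.0184 in the paired fit). ITGA2, the collagen receptor chain also found on platelets, measured 9.17, 5.83 and 7.52 FPKM in CD20-negative and 8.08, 13.6 and 13.2 FPKM in CD20-positive libraries. Its pairs differed in direction, at -0.16, 1.10 and 0.74, and it was not called (paired adjusted p = 0.255). ITGA1, a collagen receptor chain of smooth muscle, had a mean of 1.61 FPKM and no overlap between fractions, but its change of 0.38 ± 0.17 was not called (limma, adjusted p = 0.554). ITGA11, a collagen receptor chain of fibroblasts, lay under the filter at 0.847, 0.212 and 0.209 FPKM in CD20-negative and 1.77, 0.367 and 0.437 FPKM in CD20-positive libraries, so replicate 1 was the highest library of each fraction.

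The leukocyte integrins were low, and ITGB2 among them was called in the paired fit. ITGB2 (chromosome 21, 44885953 to 44931989), the beta chain of leukocyte integrins, measured 1.37, 2.32 and 2.39 FPKM in CD20-negative and 2.58, 4.99 and 5.39 FPKM in CD20-positive libraries. The fractions did not overlap, but only just, with CD20-positive replicate 1 close to CD20-negative replicates 2 and 3. The ratio of its means was 2.13 and its log2 change 0.79 ± 0.26 (limma, adjusted p = 0.457, and 0.00963 in the paired fit). ITGAL, the alpha chain that pairs with it on lymphocytes, had between 0 and 5 fragments per library, and ITGB7 between 0 and 9. ITGAX, another partner of ITGB2 and outside the 38 genes, had a mean of 3.05 FPKM and a change of 0.67 (adjusted p = 0.359, and 0.0239 in the paired fit). Of 12 leukocyte markers 2 had a mean of at least 1 FPKM, and their summed level ranged from 2.24 to 5.65 FPKM in CD20-negative and from 3.20 to 9.23 FPKM in CD20-positive libraries, with PTPRC at or near 0 in each. Of 11 B lineage markers also 2 reached 1 FPKM, with sums of 4.11 to 7.57 and 6.24 to 8.48 FPKM. The part of such cells in the ITGB2 value was not tested. ITGAE, the chain that binds E-cadherin on resident lymphocytes, was the 1 tested gene of the 27 whose CD20-positive libraries all lay below the CD20-negative ones, at 3.14, 2.82 and 3.00 against 4.64, 3.34 and 3.39 FPKM. It was not called (adjusted p = 0.646, and 0.310 in the paired fit).

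The beta chains that pair with these receptors showed no call apart from ITGB2. ITGB1, the common partner of most alpha chains in the list, measured 56.4, 37.5 and 41.0 FPKM in CD20-negative and 43.3, 58.3 and 52.2 FPKM in CD20-positive libraries. The fractions overlapped, and its pairs differed in direction, at -0.37, 0.62 and 0.34 on the log2 scale (limma, adjusted p = 0.803, and 0.618 in the paired fit). ITGB5, a partner of alphaV, measured 36.9, 22.9 and 19.9 FPKM in CD20-negative and 51.0, 27.7 and 28.6 FPKM in CD20-positive libraries. Replicate 1 was again the highest of each fraction, and the change of 0.41 ± 0.31 was not called (adjusted p = 0.725, and 0.116 in the paired fit). ITGB8, which with alphaV binds latent TGF-beta, had its 3 CD20-positive libraries (0.690, 1.00 and 0.935 FPKM) above its CD20-negative ones (0.484, 0.492 and 0.627 FPKM), at a mean under the filter. ITGB3 and ITGB6, the other alphaV partners, had at most 8 fragments in any library, as did ITGA4, and ITGA9 at most 9; the last 2 are alpha chains that bind VCAM1 among other ligands. For ITGB3, 51.6% of the exon length is shared with another annotated gene, for ITGB7 42.1% with ZNF740 and for ITGB6 20.6%. Whether the counting dropped fragments in shared exons or used strand is not given in the sources used here, so the low levels of these 3 genes are uncertain.

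**Figure D2:**
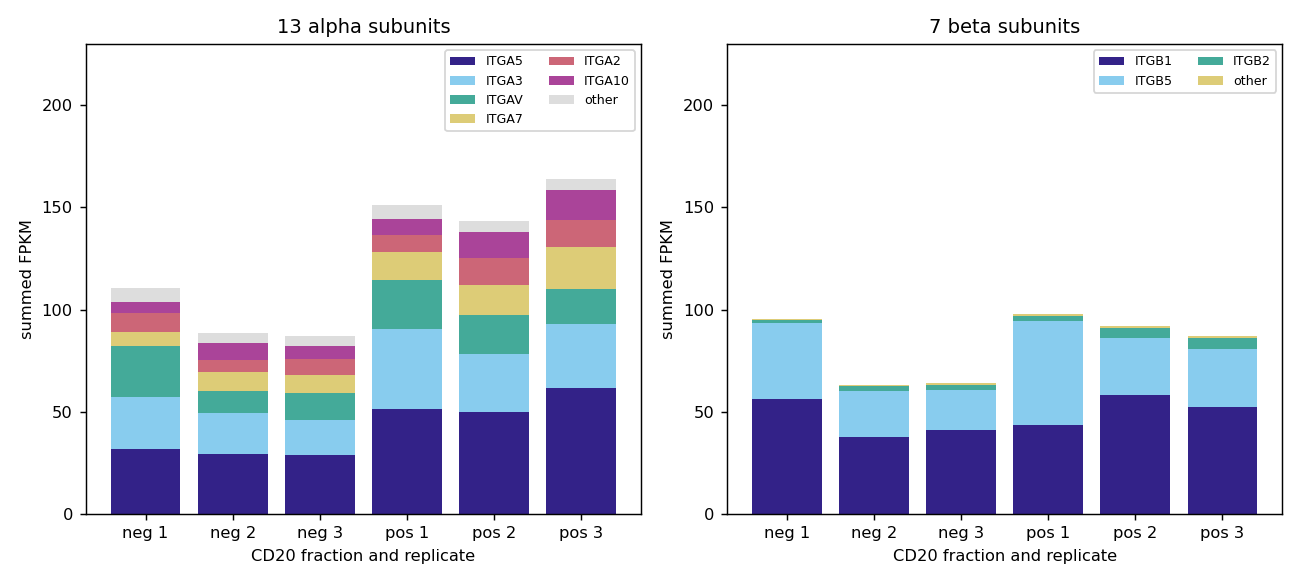
Summed FPKM of the 13 alpha chains (left) and the 7 beta chains (right) of the list in each library, coloured by chain; ITGA6 and ITGB4 are not included. The alpha sums are 87.0 to 111 FPKM in CD20-negative and 143 to 164 FPKM in CD20-positive libraries, and the beta sums overlap between fractions.

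Ratios within a library do not depend on how libraries are scaled. The sum of the 13 alpha chains over the sum of the 7 beta chains was 1.16, 1.40 and 1.36 in CD20-negative and 1.55, 1.55 and 1.88 in CD20-positive libraries. The fractions did not overlap in this ratio, which leaves out ITGA6, ITGB4 and the other subunits outside the list. Over all 18 alpha and 8 beta chains it was 1.14, 1.25 and 1.28 in CD20-negative and 1.23, 1.29 and 1.40 in CD20-positive libraries, and the fractions overlapped. ITGA5 over ITGB1, the chains of the fibronectin receptor, was 0.565, 0.782 and 0.705 in CD20-negative and 1.18, 0.855 and 1.18 in CD20-positive libraries. ITGA5 was thus below ITGB1 in each CD20-negative library and above it in CD20-positive replicates 1 and 3. ITGA5 made up 28.8 to 33.2% of the alpha sum in CD20-negative and 33.8 to 37.6% in CD20-positive libraries, ranges that nearly touch. The shares of ITGA3 overlapped, at 19.8 to 22.7% and 19.3 to 26.1%. These ratios are descriptions and were not tested.

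**Figure D3:**
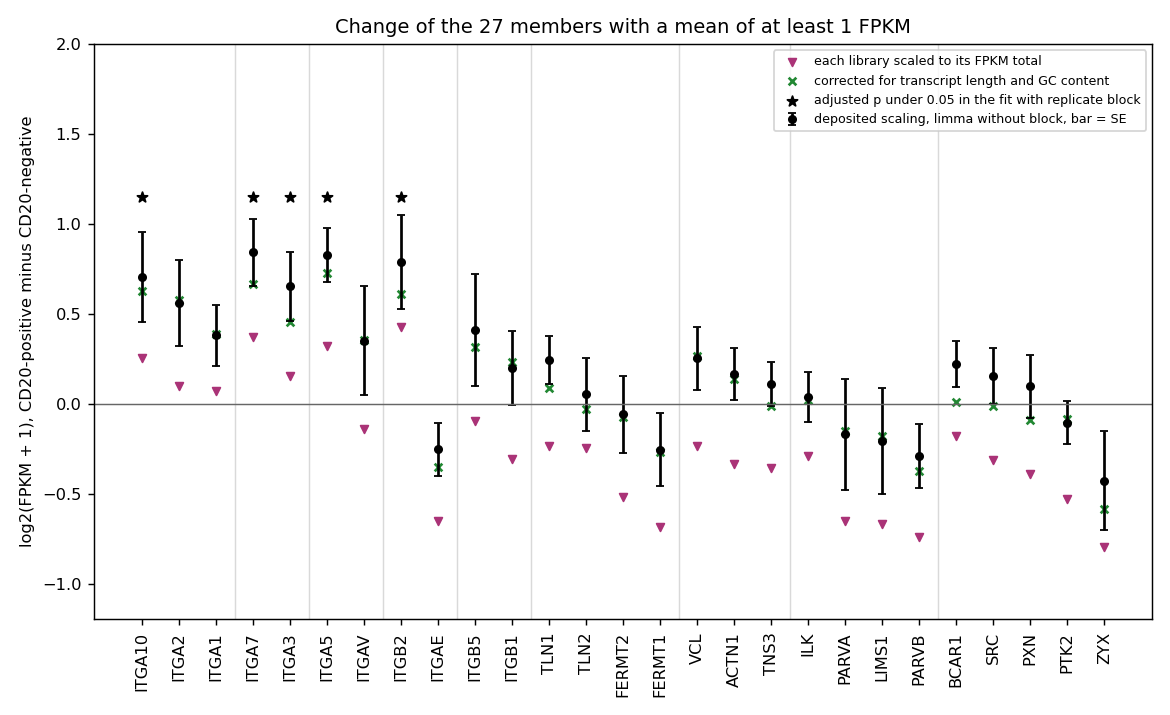
Change of the 27 tested genes on the log2(FPKM + 1) scale, CD20-positive minus CD20-negative, by role; black points with SE bars use the deposited scaling, triangles scale each library to its FPKM total, crosses correct for transcript length and GC content, and stars mark the 5 genes called in the paired fit. The called integrins lie between 0.65 and 0.84 with the deposited scaling and stay above 0 under both others. The uncalled integrins lie between -0.25 (ITGAE) and 0.56 (ITGA2), and ITGAV, ITGB1 and ITGB5 fall below 0 with the FPKM total. The adhesion proteins from TLN1 to ZYX, none of them called, lie between -0.43 and 0.25.

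The integrin activators did not pass the test. TLN1, the talin of most tissues, measured 10.8, 11.9 and 11.3 FPKM in CD20-negative and 12.1, 14.2 and 14.7 FPKM in CD20-positive libraries. The fractions did not overlap, and the log2 change was 0.24 ± 0.13 (limma, adjusted p = 0.628, and 0.325 in the paired fit). TLN2, the second talin, was lower, with a mean of 1.51 FPKM. The kindlin FERMT2 measured 7.42 ± 2.07 FPKM in CD20-negative and 7.02 ± 1.52 FPKM in CD20-positive cells (SD, n = 3), and the epithelial kindlin FERMT1 5.21 ± 1.34 and 4.19 ± 0.952 FPKM. Both kindlins were highest in replicate 1 of each fraction.

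None of the linkers to actin was called. ACTN1, a non-muscle alpha-actinin, measured 26.9, 25.4 and 22.3 FPKM in CD20-negative and 30.7, 26.95 and 26.3 FPKM in CD20-positive libraries (log2 change 0.16 ± 0.14; limma, adjusted p = 0.753). Vinculin (VCL), which binds talin under tension, measured 16.3, 19.2 and 18.1 FPKM in CD20-negative and 17.2, 25.6 and 22.4 FPKM in CD20-positive libraries (0.25 ± 0.18; limma, adjusted p = 0.690). Both sets overlapped, and neither gene was called in the paired fit (adjusted p = 0.548 and 0.329). The tensin TNS3 measured 9.16 ± 0.455 and 9.98 ± 0.698 FPKM (SD, n = 3), while TNS1 did not exceed 0.222 FPKM. ACTN4, the other non-muscle alpha-actinin and a gene that most cells use, was listed at 0 in 4 libraries and held 1 fragment in each of the remaining 2. Around it on chromosome 19 other widely used genes were also at or near 0, chosen after their values were seen: EIF3K, HNRNPL and ECH1 held 5, 19 and 1 fragments in all 6 libraries together, whereas PSMD8, further upstream, held 11008. The ACTN4 value is therefore given as listed, with no statement on its expression.

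The complex of ILK, PINCH and parvins showed no call. PARVA, the widespread parvin, measured 17.1, 12.9 and 11.7 FPKM in CD20-negative and 19.6, 11.1 and 7.99 FPKM in CD20-positive libraries. Its pairs were at 0.18, -0.20 and -0.50 on the log2 scale, so pair 1 went against the others (limma, adjusted p = 0.904, and 0.578 in the paired fit). PARVB measured 7.14 ± 0.553 and 5.74 ± 1.48 FPKM, with the same pattern of pairs at 0.16, -0.44 and -0.60. LIMS1, which encodes PINCH, measured 8.85 ± 2.89 and 7.64 ± 3.10 FPKM (SD, n = 3), and it shares near-identical sequence with LIMS3 and LIMS4, so its value is uncertain. ILK had a mean of 1.75 FPKM, but 78.5% of its exon length overlaps other genes, most of it TAF10, and its level is uncertain for the reason given above for shared exons.

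The adaptors and kinases of the adhesion site were also not called. Paxillin (PXN) measured 15.9, 16.5 and 14.1 FPKM in CD20-negative and 21.1, 15.1 and 14.3 FPKM in CD20-positive libraries, so CD20-positive replicate 1 stood above the others (0.10 ± 0.18; limma, adjusted p = 0.906). The tyrosine kinases SRC and PTK2, which act together at the adhesion, had means of 9.27 and 4.77 FPKM and log2 differences of 0.16 and -0.11, neither called. BCAR1, the p130Cas scaffold, did not overlap between fractions at 2.79 to 3.34 and 3.49 to 4.10 FPKM, but its change of 0.22 ± 0.13 was not called (adjusted p = 0.640, and 0.392 in the paired fit). Zyxin (ZYX), a LIM protein recruited to adhesions under tension, measured 1.70, 3.09 and 3.76 FPKM in CD20-negative and 2.74, 1.25 and 1.56 FPKM in CD20-positive libraries. It had the lowest change of the 27 genes, -0.43 ± 0.27, with pair 1 at 0.47 and pairs 2 and 3 at -0.86 and -0.89 (adjusted p = 0.666, and 0.522 in the paired fit).

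**Figure D4:**
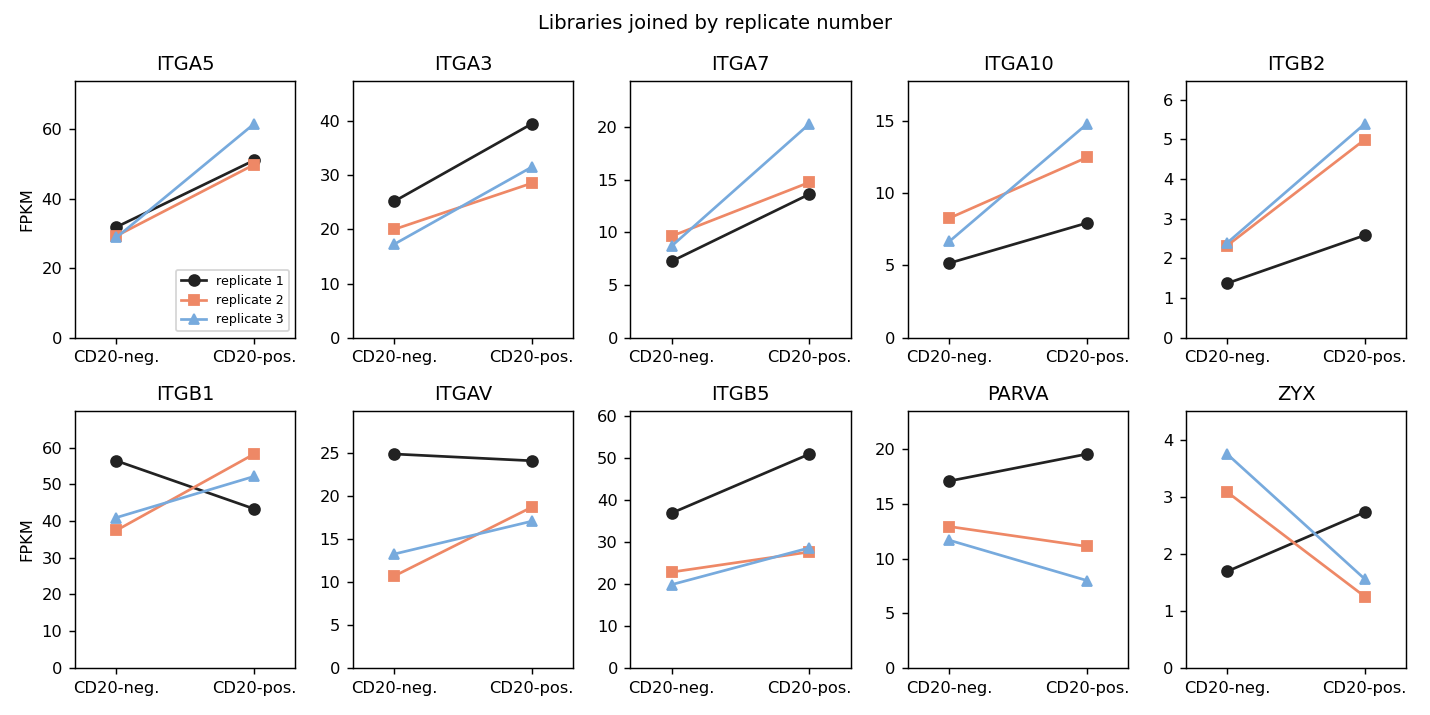
FPKM of 10 genes in the CD20-negative and CD20-positive library of each replicate, joined by replicate number; the top row holds the 5 genes called in the paired fit and the bottom row 5 genes that were not. In the top row the 3 lines slope upward for each gene, as they do for ITGB5 in the bottom row. Replicate 1 (black) lies above or crosses the other lines in the bottom row, and also for ITGA3 and ITGA5 in the top row.

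Replicate 1 stood apart in many of these genes. It was the highest library of both fractions for 10 of the 27 tested genes (37.0%), among them ITGA3, ITGAV, ITGB5, PARVA and FERMT2, and the lowest of both for 6 (22.2%), among them ITGA7, ITGA10, ITGB2, TLN1 and VCL. Over all tested genes the shares were 31.0 and 27.6%, so the libraries of replicate 1 stood apart across the genome as well. In 7 of the 27 genes (25.9%) the CD20-positive libraries lay above the CD20-negative ones with no overlap, where 8.87% of all tested genes did, and in 1 (3.70%) below, where 6.14% did. The median change of the 27 was 0.16, with 19 above 0, beside a median of 0.00 over all genes tested, of which 50.1% were above 0. All 3 pairs lay above 0 in 12 of the 27 and below 0 in 4, where 21.8 and 20.3% of all tested genes did. The 11 tested integrin subunits had a median of 0.56 and the 16 adhesion proteins one of 0.04.

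The 5 calls were made with the block alone, and several settings changed them. Once transcript length and GC content were corrected for, the paired fit called none of them (smallest adjusted p = 0.0554) and 0.502% of all tested genes, and their changes were 0.45 to 0.72. The genes tested here have long transcripts, with a median of 5151 bases against 3093 for all tested genes. Of the 27, 16 fall among the 3284 genes with the longest transcripts, out of 13135 tested genes with a known length. Those 3284 genes had a median change of 0.02 and the 16 one of 0.18, while the 3284 genes with the shortest transcripts had -0.10. With no filter on low levels the paired fit also called none of them, and 0 of all 29267 genes then tested. At a filter of 10 FPKM it called 3 of the 11 then tested, ITGA3, ITGA5 and ITGA7. It called 9.93% of all genes then tested as higher. Without both libraries of replicate 2 the paired fit called none of the 27, and only 1 of all 13155 tested genes. Without those of replicate 3 it called ITGB2 alone, beside 1.32% of all tested genes as higher. Without replicate 1 it called 10, adding ITGB1, ITGAV and ITGA2 as higher and PARVB and ZYX as lower, where 7.74% of all tested genes were called higher and 8.54% lower. Limma's prior, the weight of the spread shared between genes, was infinite there for 90.3% of tested genes. It was infinite for 89.5% without replicate 3 and for 93.4% at the filter of 10 FPKM. For such genes the p-values do not use the gene's own spread. Setting the FPKM totals of the libraries equal shifted the median of all genes to -0.41. It left the 5 at 0.15 to 0.43 with no call, gave 6 calls of lower genes in the paired fit (PARVA, LIMS1, PARVB, FERMT1, ITGAE and ZYX), where 29.1% of all tested genes were called lower, and turned ITGAV, ITGB1, ITGB5 and the adhesion proteins with a positive change below 0. Scaling to the total of nuclear genes alone, added after seeing the data, gave 0.75 to 0.94 for the 5, which passed in the paired fit together with ITGB5, where 5.2% of all tested genes were called higher.

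Other genes of the pathway were read from lists by role, and without the block no list held a call. In the paired fit the counts below stand beside 3.19% of all tested genes called higher and 2.64% lower. Of 35 integrin ligands 24 were tested and the paired fit called 7 (29.2%) higher and none lower, namely FN1, LAMB3, COL6A2, COL6A1, COL4A2, LAMB2 and LTBP1. The median change of the list was 0.48. FN1, the fibronectin bound by ITGA5, measured 25.1 ± 11.5 and 51.6 ± 12.7 FPKM (paired adjusted p = 0.00426), and LAMB3 and COL6A2, a laminin and a collagen chain, had changes of 1.00 and 1.04. Of 6 further integrin subunits 4 were tested and 2 rose in the paired fit, ITGB4 (19.6 ± 1.44 and 42.8 ± 6.61 FPKM; SD, n = 3) and ITGAX, while ITGA6, the partner of ITGB4, was at 0.25 and was not called. Of 26 other adhesion adaptors 21 were tested and 1 (4.76%), a share near that of all genes, passed in the paired fit, the tensin TNS2 at 0.57 (adjusted p = 0.0459). PDLIM7 and PDLIM1, LIM proteins of the actin cytoskeleton, were at 0.27 and -0.29 with no call. None of the 13 tested regulators of integrin activation was called, with KANK2, SHARPIN and CD151 at 0.24, 0.28 and 0.17. None of the 27 kinases and GTPase signalling genes passed in the paired fit either, where CDC42, YES1 and PTPN11 were at -0.54, -0.42 and -0.38 (adjusted p = 0.0582, 0.0995 and 0.155). Of 16 actomyosin genes 15 were tested with no call and a median of -0.18, with MYL12B, MYH9 and MYL6 at -0.58, 0.39 and -0.34. Of 9 fibroblast and mural markers 3 were tested and 2, PDGFRB and COL3A1, were called higher in the paired fit, with sums of 63.7 to 86.5 FPKM in CD20-negative and 105 to 143 FPKM in CD20-positive libraries, and their part in the ligand result was not tested.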

How the data were processed

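PolyA RNA of 6 samples of sorted M14 sphere cells was sequenced, per the labels' protocols. HISAT2, featureCounts 1.5.0 and DESeq2 with GRCh38 (hg38) are named in the submitters' processing notes, with no settings. The values as deposited were normalised by the authors to FPKM, a unit read from the values because none is given per the file headers: FPKM times exon length in GENCODE 29 gave whole multiples of 1 step per library for 98.1 to 98.6% of low values (up to 20 fragments, tolerance 0.02). Fragment numbers come from these steps, and floors cover counting error only.

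Values were tested as log2(FPKM + 1) with limma 3.58.1 (R 4.3.3, trend, robust prior, two-sided, Benjamini-Hochberg) over genes averaging 1 FPKM or more. The procedure was tested on simulated data. Same-numbered libraries shared a deviation there by construction, so that test cannot show whether the pairing holds here. Same-numbered libraries correlated in their deviations at 0.675, 0.238 and 0.509 for replicates 1, 2 and 3 over 13155 genes. The numbers were taken as pairs, which the labels do not state. CD20-negative replicate 2 correlated better with CD20-positive replicate 3 (0.426), and CD20-positive replicate 2 better with CD20-negative replicate 3 (0.396). These values therefore do not settle how the libraries of replicates 2 and 3 should be matched. All 38 genes are accounted for. Those with a mean of at least 10 FPKM or a call in either fit are given per library by rule, and from each further list the rule names the 3 genes of at least 10 FPKM with the smallest paired p. Per-library values of ITGA2, ITGA11, ITGAE, ITGB8 and ZYX, and the other list genes named, were chosen after their values were seen. Members and lists were chosen with earlier results of these data known. Alternatives covered the pseudocount, filter, scaling, voom, length and GC content, the block and left-out libraries.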

Additional observations from a re-analysis of the deposited data

How the results depend on the processing

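Without the block, 1 gene (0 of the adhesion genes) was called. The total was 1 with pseudocount 0.1, the filter of 10 FPKM, median-of-ratios scaling or the nuclear FPKM total, 2 with pseudocount 5, 9 with quantile normalisation, 0 with no filter, voom or the correction for length and GC content, and 1382 with the FPKM total, where 1 adhesion gene (PARVB, lower) passed. Leaving out 1 library gave 0 to 322 genes and 0 to 2 adhesion genes; the 322, with ITGA5 and ITGB2, came without CD20-positive replicate 1. With the replicate block 767 genes and 5 adhesion genes were called. With the block this became 954 and 3 at the filter of 10 FPKM, 0 and 0 with no filter, 3923 and 6 (each lower) with the FPKM total, 66 and 0 with length and GC content corrected, 942 and 6 with the nuclear FPKM total, and 1604 and 8 with voom. The block without both libraries of a replicate gave 1 to 2141 genes and 0 to 10 adhesion genes: 2141 and 10 without replicate 1, 1 and 0 without replicate 2, 331 and 1 without replicate 3. With voom and the block, the limma prior described above was infinite for 83.9% of tested genes. Why these counts move was not tested. Voom with the block and the nuclear total were chosen after seeing the data.

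The 5 called subunits kept their sign in each setting run. They were picked by their calls in these same libraries, so the kept sign is no separate support for those calls. Signs of uncalled genes turned with the FPKM total, with or without the block, for ITGAV (-0.14), ITGB1 (-0.31), ITGB5 (-0.094), TLN1 (-0.23), TLN2 (-0.24), VCL (-0.24), PXN (-0.39), ILK (-0.29), SRC (-0.31), BCAR1 (-0.18), TNS3 (-0.36) and ACTN1 (-0.33). They turned with length and GC content corrected, with or without the block, for TLN2 (-0.028), PXN (-0.089), SRC (-0.015) and TNS3 (-0.015), and with the nuclear total for FERMT2 (0.031). With 1 library left out, the sign turned in at least 1 case for TLN2 (-0.12 to 0.17), PXN (-0.070 to 0.20), ILK (-0.024 to 0.11), PARVA (-0.50 to 0.099), LIMS1 (-0.48 to 0.022) and FERMT2 (-0.21 to 0.13). With the block they turned without replicate 1 for TLN2 (-0.011), PXN (-0.051) and SRC (-0.011), without replicate 2 for ITGB1 (-0.016) and without replicate 3 for ILK (-0.043). The MS4A1 ratio of 3.91 was 2.71 with the FPKM total and 3.49 to 4.76 with 1 library left out. Depth limits the subunits with under 10 fragments per library, for which no change was detectable.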
